A study of Mus musculus with 6 samples.

Results

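The genes of vitamin A (retinoid) handling described here are Rbp4, Ttr, Stra6l, Bco1, Rdh16, Dhrs3, Retsat, Aldh1a1 and Cyp26a1. They are 9 of the 57180 genes in a gene expression table from mouse primary hepatocytes, and all 9 were among the 14151 genes with enough counts to be tested. They were chosen by name, with earlier results of the same comparison in view. Their differences between the groups are therefore given as a description, without a test, and serve as support for nothing.

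RNA was sequenced from hepatocytes of male mice, cultured in a medium with dexamethasone and serum and treated with 0.1 mM palmitic acid, a saturated fatty acid that mimics lipid overload, for 24 h. The 3 libraries labelled LOXP came from mice with floxed alleles of STING, the adaptor protein downstream of the cytosolic DNA sensor cGAS (STINGLoxp). The 3 libraries labelled KO came from STINGLKO mice, in which the floxed mice were crossed with Albumin-Cre mice, so that Cre is expressed in hepatocytes and STING in other liver cells is left in place. Both groups received palmitic acid, so the comparison holds no untreated cells, and whether the 3 libraries of a group came from separate mice is not given in the sources used here. The p-values thus measure the spread between these libraries, which may be technical.

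Retinol leaves the liver bound to RBP4, which circulates in a complex with transthyretin (the Ttr product), and cells take it up through membrane receptors. Inside the cell retinol is oxidised to retinal and retinal to retinoic acid, while retinal reductases run the first step backwards and CYP26 enzymes break retinoic acid down. Retinoic acid binds RAR receptors, which pair with RXR receptors on direct repeats of a short DNA sequence, and Cyp26a1 and Dhrs3 are known targets of retinoic acid signalling. Hepatocytes make RBP4 and take up dietary retinoids, whereas stellate cells hold most of the liver's stored retinyl esters.

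The promoters of Cyp26a1 and Bco1 are shown because they were the ones among the 9 genes with a direct repeat of the receptor half-sites searched for. Each sequence is the 250 bases before the start site in RefSeq's annotation of GRCm38.p6, written 5′ to 3′ on the gene's strand, with the direct repeat in capitals. The Cyp26a1 stretch lies at chr19:37697558-37697807 on the plus strand, and the Bco1 stretch at chr8:117095615-117095864 on the plus strand.
Cyp26a1: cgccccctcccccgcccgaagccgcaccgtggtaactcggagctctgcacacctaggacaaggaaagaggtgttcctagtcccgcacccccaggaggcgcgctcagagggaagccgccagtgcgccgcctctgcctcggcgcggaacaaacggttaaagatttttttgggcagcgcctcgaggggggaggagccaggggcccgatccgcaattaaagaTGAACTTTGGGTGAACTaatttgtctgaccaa
Bco1: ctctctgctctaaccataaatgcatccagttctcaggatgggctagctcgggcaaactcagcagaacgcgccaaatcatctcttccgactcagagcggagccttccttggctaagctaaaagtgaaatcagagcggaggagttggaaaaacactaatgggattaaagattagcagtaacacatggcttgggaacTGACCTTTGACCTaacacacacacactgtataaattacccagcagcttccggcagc

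Libraries held 14726983 to 18536985 counted reads. Sting1, the targeted gene, had 19, 16 and 23 counts in the libraries labelled LOXP and 24, 23 and 15 in those labelled KO, a log2 fold change of -0.08 with a standard error of 0.298 (edgeR's quasi-likelihood test, adjusted p = 0.883). It was thus not lower in the libraries labelled KO at this depth, and a count over the whole gene does not say which exons the reads came from. The study itself measured Sting mRNA by RT-PCR in purified hepatocytes and reported that the knockout cells had lost it. Of 14 hepatocyte markers tested, 10 were lower and 1 was higher in the libraries labelled KO at an adjusted p under 0.05, with a median log2 fold change of -0.37 and summed levels of 27032 to 28911 CPM against 22431 to 23834 CPM. Over all genes tested, 11.6% were lower and 11.5% higher at that threshold. Of 11 stellate and fibroblast markers tested, Tagln alone passed, and was higher, with a list median of 0.16 and summed levels of 88.6 to 91.8 CPM against 89.5 to 97.9 CPM. Over all 6 libraries the 16 listed stellate and fibroblast markers had from 1 count (Gfap) to 3769 counts (Ecm1), with 2170 for Dcn, 468 for Reln and 30 for Lrat. Of the remaining markers tested, 1 of 11 endothelial and 2 of 13 macrophage markers were lower, and 3 of 4 cholangiocyte markers were lower and 1 was higher. The part of cell makeup in the values that follow was not tested, and in bulk RNA fewer cells of a type and less RNA per cell cannot be told apart.

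Cyp26a1, Stra6l and Dhrs3 were the furthest below in the libraries labelled KO, against LOXP libraries whose means were 2.87, 2.60 and 2.48 times as high. Ttr and Bco1 were lower by smaller amounts, with LOXP means 1.37 and 1.30 times as high, and Retsat and Aldh1a1 were higher, with KO means 1.49 and 1.31 times as high. Rbp4 and Rdh16 had overlapping groups. In the fit over all genes, 7 of the 9 had an adjusted p under 0.05, 5 lower and 2 higher, where 23.1% of all genes tested had one, 11.6% lower and 11.5% higher. With 1 library left out in turn, the number lower ran from 4 to 6, as Bco1 was not past that threshold without LOXP replicate 3, KO replicate 1 or KO replicate 3, and Rbp4 was past it without LOXP replicate 1. The study's 3 criteria ask for a log2 fold change beyond 1 in either direction, for an adjusted p below 0.05, and for a group mean of more than 1 FPKM. By them 3 of the 9 were called, all of them lower, where 2.05% of all genes tested were called and 1.49% were called lower. The groups did not overlap for 7 of the 9, against 40.7% of all genes tested, and 5 of these were lower, against 20.3%, and 2 higher, against 20.4%. The median log2 fold change was -0.38 over the 9 genes and -0.0021 over all genes tested. Since the comparison itself led to the choice of these genes, nothing is read from these counts.

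**Figure D1:**
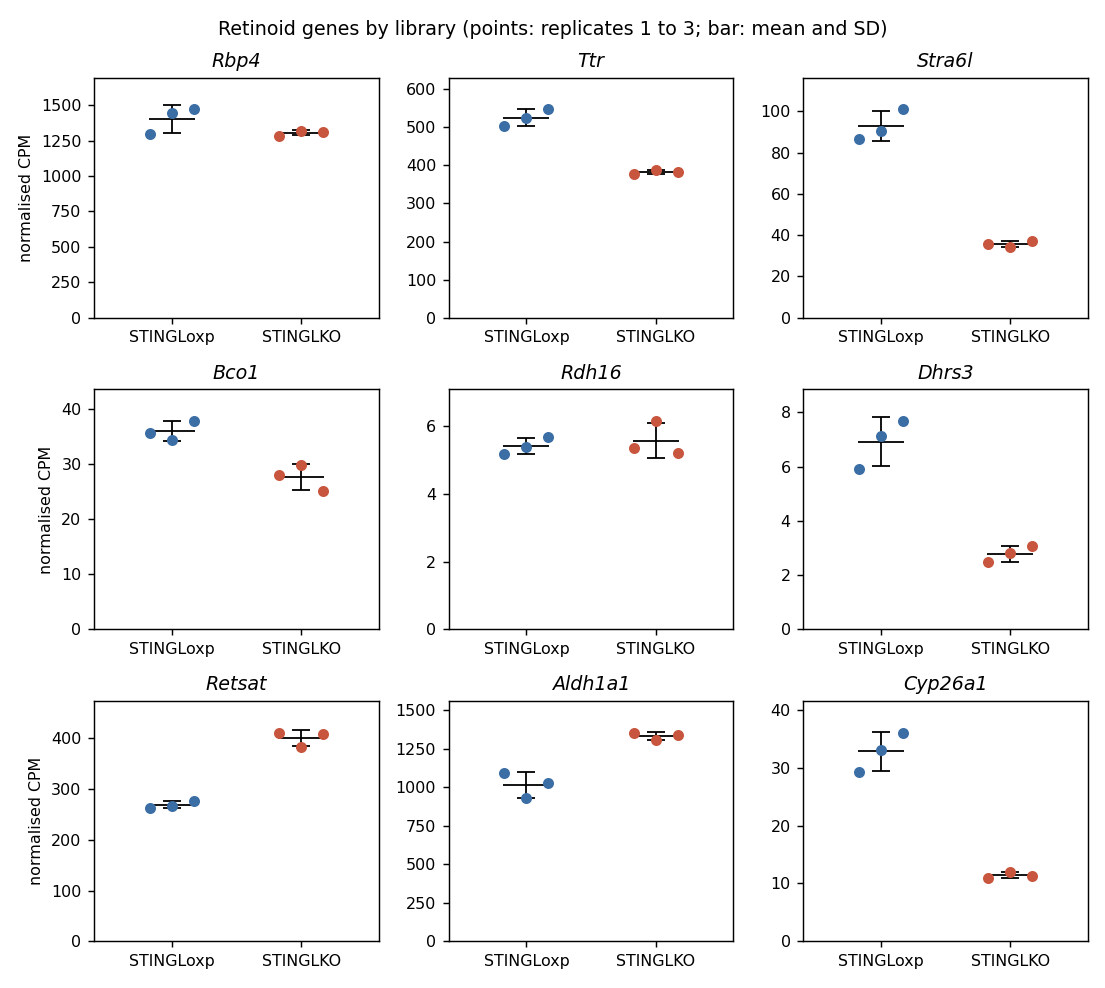
Level of each of the 9 retinoid genes in each library, in normalised CPM (vertical axes from 0). Points are libraries in the order of replicates 1 to 3, bars the mean and SD of 3 libraries labelled LOXP (STINGLoxp, blue) or KO (STINGLKO, red), and the groups overlap for Rbp4 and Rdh16 and for no other gene.

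The carriers that take retinol out of the liver differed in how they stood between the groups. Rbp4, at chr19:38105077-38113729 in the table's build GRCm39, encodes the plasma retinol carrier. Its level in CPM, counts scaled to a common library total with TMM factors, was 1294, 1447 and 1474 CPM in the libraries labelled LOXP and 1285, 1318 and 1312 CPM in those labelled KO. The groups overlapped, with LOXP replicate 1 inside the range of the KO libraries, and the log2 fold change was -0.11 with a standard error of 0.06. Ttr, whose product transthyretin binds RBP4 and thyroxine, had 503, 523 and 548 CPM against 377, 389 and 384 CPM. Every library labelled KO was below every library labelled LOXP, and the log2 fold change was -0.45 with a standard error of 0.05. The ratio of Rbp4 to Ttr by FPKM (counts scaled by gene length and by the library's total) was 1.45, 1.56 and 1.52 in the libraries labelled LOXP and 1.93, 1.92 and 1.93 in those labelled KO, so the pair did not keep the same proportion in both groups. Both are products of hepatocytes, and the hepatocyte markers had a median log2 fold change of -0.37, a part that was not tested.

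Stra6l, at chr4:45848664-45887008, encodes a membrane receptor for RBP4 that the liver expresses, unlike the related receptor Stra6. It had 86.8, 90.7 and 101 CPM in the libraries labelled LOXP and 35.6, 34.5 and 37.0 CPM in those labelled KO. The KO values spanned a narrow range and lay far below the lowest LOXP value. The mean was 92.9 CPM ± 7.45 against 35.7 CPM ± 1.25 (SD, n = 3 each), 2.60 times as high in the libraries labelled LOXP, and the log2 fold change was -1.38 with a standard error of 0.08. Stra6 itself had no count in any library.

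Bco1, the enzyme that cleaves beta-carotene into retinal, lies at chr8:117822593-117860459. It had 35.6, 34.3 and 37.8 CPM in the libraries labelled LOXP and 27.9, 29.8 and 25.0 CPM in those labelled KO. The groups did not overlap, and KO replicate 2 came nearest to the LOXP libraries. The log2 fold change was -0.38 with a standard error of 0.09.

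The enzymes between retinol and retinal did not move as one. Dhrs3, at chr4:144619397-144654779, encodes a retinal reductase that turns retinal back into retinol. It had 5.92, 7.12 and 7.69 CPM in the libraries labelled LOXP and 2.48, 2.80 and 3.09 CPM in those labelled KO. These levels rest on 94, 102 and 117 counts against 39, 52 and 53 counts, and the highest KO library held fewer counts than the lowest LOXP library. The log2 fold change was -1.30 with a standard error of 0.17, which on log2(FPKM + 1) became -0.53 since the gene's mean FPKM was 1.11 and 0.461 in the groups.

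Rdh16, a dehydrogenase that oxidises retinol to retinal, lies in a cluster of similar genes at chr10:127637021-127682434. It had 5.17, 5.38 and 5.65 CPM against 5.35, 6.14 and 5.18 CPM. The groups overlapped, and the log2 fold change was 0.04 with a standard error of 0.14. The pseudogene Rdh18-ps lies within its span and is listed at 0 counts, and reads shared between near-identical members of the cluster could have been split by the counting, so its level is uncertain.

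Retsat, at chr6:72575458-72585408, encodes the enzyme that saturates a double bond of retinol to give dihydroretinol. It had 263, 267 and 277 CPM in the libraries labelled LOXP and 411, 382 and 408 CPM in those labelled KO. All 3 KO libraries were above all LOXP libraries, and the mean was 1.49 times as high in them. The log2 fold change was 0.57 with a standard error of 0.05. Gm45053, a transcript model that overlaps Retsat, held 1.95% as many counts as Retsat and had a log2 fold change of -0.02.

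Aldh1a1, at chr19:20470079-20620829, encodes a retinal dehydrogenase that makes retinoic acid. It had 1092, 928 and 1026 CPM in the libraries labelled LOXP and 1354, 1306 and 1337 CPM in those labelled KO. LOXP replicate 2 was the lowest of the 6, and no LOXP library reached the lowest KO library. The log2 fold change was 0.39 with a standard error of 0.06. Of its relatives, Aldh1a2 and Aldh1a3 had 1 and 4 counts over all 6 libraries, and Aldh1a7 had 11814.

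Cyp26a1, at chr19:37686246-37689984, encodes the main retinoic acid hydroxylase of the adult liver. It had 29.4, 33.1 and 36.1 CPM in the libraries labelled LOXP and 10.9, 12.1 and 11.4 CPM in those labelled KO, resting on 466, 474 and 549 counts against 172, 224 and 195 counts. The KO libraries lay close together and well below the LOXP libraries. The mean was 32.9 CPM ± 3.37 against 11.5 CPM ± 0.568 (SD, n = 3 each), 2.87 times as high in the libraries labelled LOXP, and the log2 fold change was -1.52 with a standard error of 0.10. In absolute size that change was larger than those of 98.4% of the genes tested.

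Within the group labelled LOXP, replicate 3 was the highest for 8 of the 9 genes and replicate 1 the lowest for 7. Aldh1a1 was the exception at the top, with its highest LOXP value in replicate 1. Within the group labelled KO, replicate 2 was the highest for 5 genes and the order was otherwise mixed. These orders within a group were small beside the differences between groups for Cyp26a1, Stra6l and Dhrs3, and as large as the difference between groups for Rbp4.

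Compared per length by FPKM, the 9 genes covered a wide range of levels. Rbp4 stood 1046-fold above Rdh16 in the libraries labelled LOXP and 1366-fold above Dhrs3 in those labelled KO. In the LOXP libraries the order by mean FPKM was Rbp4 (661), Ttr (437), Aldh1a1 (170), Retsat (61.8), Cyp26a1 (13.2), Bco1 (11.9), Stra6l (7.88), Dhrs3 (1.11) and Rdh16 (0.632). Cyp26a1 and Bco1 overlapped in this order, and no other neighbours did. In the KO libraries Bco1 (9.36) stood above Cyp26a1 (4.73), and Rdh16 (0.666) above Dhrs3 (0.461), and no neighbours overlapped. The first 4 places, held by the secreted carriers and by Aldh1a1 and Retsat, were the same in both groups.

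**Figure D2:**
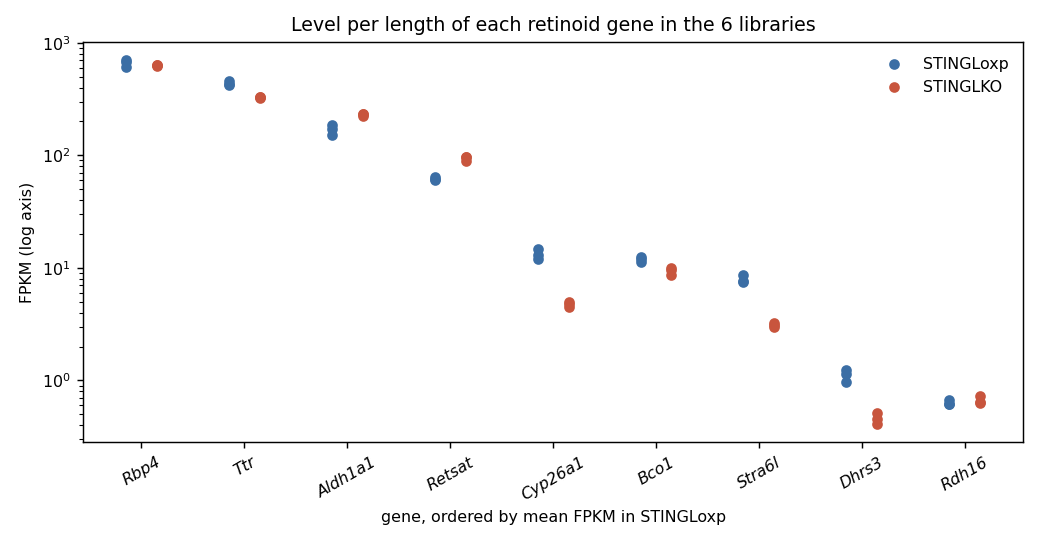
Level per length (FPKM, log axis) of each of the 9 genes, ordered by mean FPKM in the libraries labelled LOXP. Each point is a library, blue for STINGLoxp and red for STINGLKO, and the carriers Rbp4 and Ttr lead in both groups while Dhrs3 and Rdh16 are at the low end.

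The FPKM ratio of Aldh1a1, one gene for making retinoic acid, to Cyp26a1, one gene for its removal, differed between the groups. Retinoic acid itself was not measured. The ratio of Aldh1a1 to Cyp26a1 was 15.4, 11.6 and 11.8 in the libraries labelled LOXP and 51.3, 44.9 and 48.9 in those labelled KO. That of Retsat to Cyp26a1 was 5.10, 4.59 and 4.37 against 21.4, 18.0 and 20.4. Aldh1a1 to Retsat, which were both higher in the libraries labelled KO, had ratios of 3.03, 2.53 and 2.70 against 2.40, 2.49 and 2.39. The ratios to Cyp26a1 did not overlap between the groups, and follow from the values that led to the choice of these genes.

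Of 78 other genes of retinoid handling and response, 50 were tested, 28 had too few counts and 15 of those had none. Of the 50, 17 passed an adjusted p of 0.05 (34.0%, against 23.1% of all genes tested), 14 lower and 3 higher in the libraries labelled KO. Their median log2 fold change was -0.20, and by the 3 criteria 0 were called lower and 1, Fabp5, higher.

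**Figure D3:**
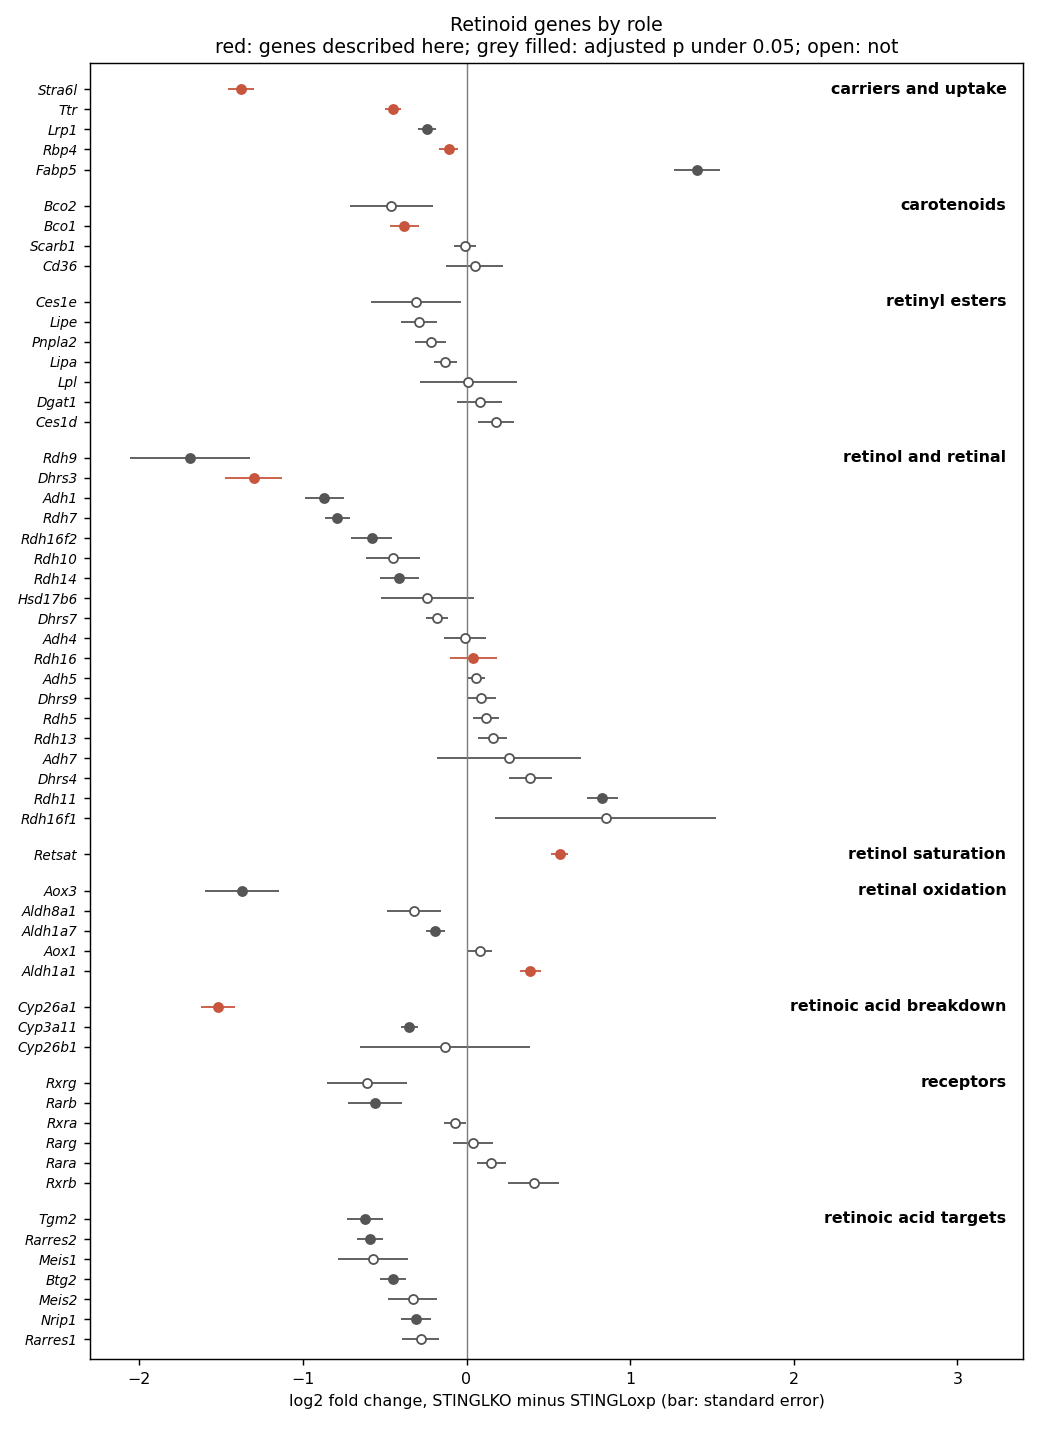
Log2 fold change (libraries labelled KO minus LOXP, horizontal axis) with its standard error for the 9 genes (red, filled without regard to a test) and the other retinoid genes tested and reported here, grouped by role. Grey points are filled at an adjusted p under 0.05 and open otherwise, and every retinoic acid target shown is left of 0.

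Among carriers and uptake genes, 4 of 11 were tested and 3 passed, 1 lower and 2 higher, where 23.1% of all genes tested passed. Fabp5, a fatty acid binding protein that also carries retinoic acid to the nucleus, had 16.0, 13.0 and 20.0 CPM against 45.2, 44.2 and 41.0 CPM, and rose with a log2 fold change of 1.41 (edgeR's quasi-likelihood test, adjusted p = 3.63e-04). Lrp1, an uptake receptor for remnant particles that bring retinyl esters to the liver, fell with a log2 fold change of -0.24 (adjusted p = 0.0163 in the same test). The adjusted p of Lrp1 reached 0.0708 among the alternative settings.

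Genes of retinyl esters and of carotenoids, the other steps upstream of retinol, gave no call. Of 7 tested genes of retinyl ester storage and hydrolysis, 0 passed in edgeR's quasi-likelihood test, with 2 at an unadjusted p under 0.05, and 0 passed with DESeq2 or limma. The most abundant, the lipase Pnpla2, had a log2 fold change of -0.22 (adjusted p = 0.122). Lrat, which makes the esters in stellate cells, had 30 counts in all and was not tested. Of 3 tested carotenoid genes beside Bco1, 0 passed in edgeR, DESeq2 or limma, with 0 at an unadjusted p under 0.05 in each. Scarb1, a lipoprotein receptor that also takes up carotenoids and the most abundant of them, had a log2 fold change of -0.01 (adjusted p = 0.93).

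Among the 17 other tested genes between retinol and retinal, 5 fell, 1 rose and 11 did not pass. Over all genes tested, 11.6% passed and were lower and 11.5% passed and were higher. Adh1, an alcohol dehydrogenase that oxidises retinol, had 51.9, 57.5 and 71.7 CPM against 34.1, 34.3 and 30.6 CPM, and fell by 0.87 on the log2 scale (edgeR's quasi-likelihood test, adjusted p = 0.00165). Rdh7, a relative of Rdh16, had 52.6, 55.4 and 61.1 CPM against 32.5, 32.5 and 32.9 CPM, and fell by 0.79 (adjusted p = 3.11e-04). Rdh11, a retinal reductase, had 80.3, 63.5 and 66.3 CPM against 132, 122 and 118 CPM, and rose by 0.83 (adjusted p = 7.48e-04). So Dhrs3 and Rdh11, which reduce retinal, stood on opposite sides of 0.

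Rdh9 and Rdh16f2, which flank Rdh16 in the cluster, fell by 1.69 and 0.58 on the log2 scale (edgeR's quasi-likelihood test, adjusted p = 0.0129 and 0.0131). For Rdh9, a gene of 0.582 to 3.42 CPM, the adjusted p reached 0.0554 among the alternative settings, and the log2 fold change was -0.40 on log2(FPKM + 1). Rdh14 fell by 0.41 (adjusted p = 0.0405, up to 0.136 among the settings). Dhrs9, the most abundant gene of this step, had a log2 fold change of 0.09 (adjusted p = 0.506). The levels of the cluster's members are uncertain for the reason given for Rdh16.

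Of 4 tested genes of retinal oxidation beside Aldh1a1, 2 passed, and both fell, where 11.6% of all genes tested passed and were lower. Aox3, an aldehyde oxidase, had 6.24, 7.96 and 9.34 CPM against 2.35, 2.86 and 3.84 CPM and fell by 1.37 on the log2 scale (edgeR's quasi-likelihood test, adjusted p = 0.00371), or by 0.50 on log2(FPKM + 1). Aldh1a7, the neighbouring relative of Aldh1a1, had 125, 134 and 132 CPM against 117, 112 and 116 CPM, and fell by 0.19 (adjusted p = 0.048, up to 0.174 among the settings). In most of the settings the adjusted p of Aldh1a7 was above 0.05. Aldh1a1 was higher and Aldh1a7 lower in the libraries labelled KO, although the genes lie beside each other.

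Of the other genes of retinoic acid breakdown, Cyp3a11, a broad-range P450 enzyme, had 358, 334 and 329 CPM against 272, 266 and 263 CPM and fell by 0.35 on the log2 scale (edgeR's quasi-likelihood test, adjusted p = 0.00247). Cyp3a11 is also counted among the hepatocyte markers, whose median log2 fold change was -0.37, a part that was not tested. Cyp26b1, the relative of Cyp26a1, had 14.1, 2.37 and 18.2 CPM against 9.93, 11.7 and 10.2 CPM, with a log2 fold change of -0.13 (adjusted p = 0.892). LOXP replicate 2 was far below the other 5 libraries for Cyp26b1. That library also had the lowest summed endothelial, macrophage, and stellate and fibroblast markers among the LOXP libraries, 242, 155 and 88.6 CPM. LOXP replicate 1 had 269, 160 and 91.0 CPM, and LOXP replicate 3 had 281, 175 and 91.8 CPM. In the KO libraries these sums were 223 to 240.0 CPM, 108 to 128 CPM and 89.5 to 97.9 CPM. Summed cholangiocyte markers went the other way, with 326 CPM in LOXP replicate 2 against 268 and 312 CPM in LOXP replicates 1 and 3. The part of other cells in the level of Cyp26b1 was not tested. Cyp26c1 had 2 counts over all 6 libraries.

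Of the 6 retinoic acid receptors, all tested, Rarb was the one that passed and fell by 0.56 on the log2 scale (edgeR's quasi-likelihood test, adjusted p = 0.0398, up to 0.126 among the settings). The adjusted p of Rarb was above 0.05 in most of the settings. Rxra, the most abundant receptor, had a log2 fold change of -0.07 (adjusted p = 0.489). Of the listed retinoic acid targets, which leave out Cyp26a1 and Dhrs3, 10 of 19 were tested, all 10 had a log2 fold change under 0, and the groups did not overlap for 9 of them, where 20.3% of all genes tested were lower without overlap. The median was -0.50, and 5 of the 10 passed, all of which fell, where 11.6% of all genes tested passed and were lower. With DESeq2 4 of the 10 passed, and with limma on either FPKM scale 3. The list was chosen with earlier results of these data known, so nothing is read from these shares. Tgm2, a transglutaminase, had 1059, 1463 and 1251 CPM against 770, 881 and 806 CPM and fell by 0.62 (adjusted p = 0.00495). Rarres2, which encodes the secreted protein chemerin, fell by 0.59 (adjusted p = 0.00155), and Btg2, an antiproliferative gene, by 0.45 (adjusted p = 0.00485). Nrip1, a corepressor of nuclear receptors, fell by 0.31 (adjusted p = 0.039, up to 0.127 among the settings), and Rarb is also of this list. For Nrip1 too, the adjusted p was above 0.05 in most of the settings. On log2(FPKM + 1), Rarb was at -0.23 and Nrip1 at -0.20. All 5 changes were smaller than those of Cyp26a1 and Dhrs3 in the fit on counts, and these targets answer to other signals too.

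**Figure D4:**
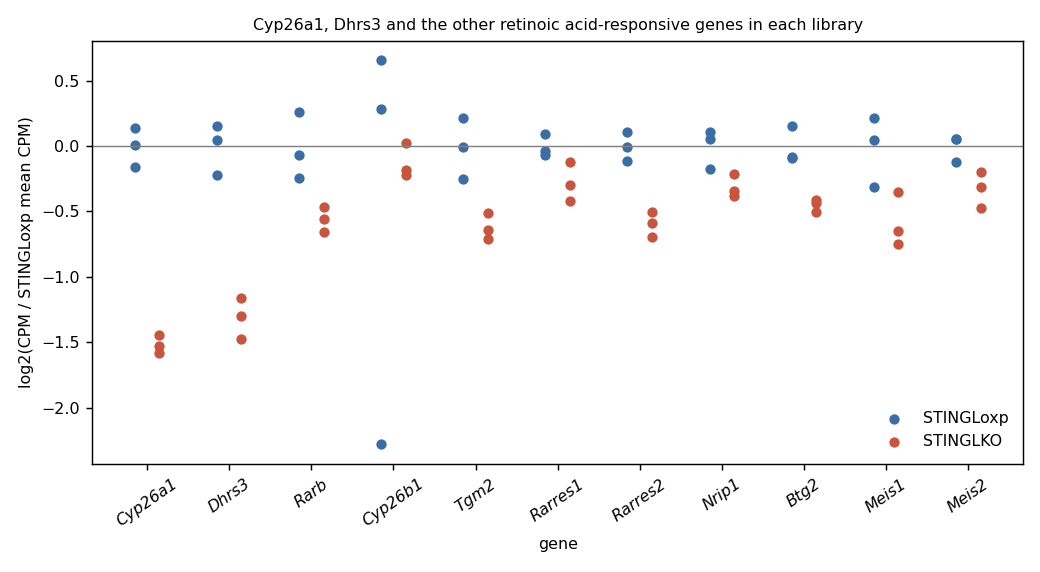
Level of Cyp26a1, Dhrs3 and the other tested retinoic acid targets reported here in each library, as log2 of CPM over the mean CPM of the libraries labelled LOXP (blue: STINGLoxp, red: STINGLKO). The red points of Cyp26a1 and Dhrs3 lie lowest, and Cyp26b1 is the one gene with overlapping groups, through the low LOXP replicate 2.

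Position on the chromosome was not used in the choice of genes, but some neighbours are relatives of the 9 genes. Within 500 kb of the 9 genes, measured between lower coordinates, 92 other genes were tested. Of them, 29 passed an adjusted p of 0.05 (31.5%, against 23.1% of all genes tested). These were 21 lower and 8 higher, where 11.6% and 11.5% of all genes tested passed in those directions. Within 100 kb, 9 of 23 passed, a share of 39.1%. Around Rdh16, which contributes 31 of the 92, and Retsat, which contributes 17, the passing genes numbered 10 and 8. Rdh7, Rdh9, Rdh16f2, Lrp1 and Aldh1a7 are among the neighbours that passed and are also counted among the other retinoid genes above. The shares are thus not independent of those lists, and nothing is read from them.

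Of 12 tested genes around Cyp26a1, 3 passed (25.0%, near the 23.1% of all genes tested), and all 3 fell. Gm32342, a long non-coding RNA gene that lies 86 bases before Cyp26a1, had 98, 116 and 110 counts in the libraries labelled LOXP and 17, 43 and 34 counts in those labelled KO. No KO library reached the lowest LOXP library. It fell by 1.98 on the log2 scale with a standard error of 0.259 (edgeR's quasi-likelihood test, adjusted p = 0.00128), with values from -2.21 to -1.09 among the alternative settings. The strand setting of the counting is not given in the sources used here, so reads could have been assigned across such close genes. 4931408D14Rik, another long non-coding RNA gene on the far side of the window, fell by 1.72 (adjusted p = 1.51e-04), and Hhex, a homeobox gene expressed in hepatocytes, by 0.29 (adjusted p = 0.036). Rbp4, which lies 419 kb beyond Cyp26a1 on the same chromosome, had overlapping groups.

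**Figure D5:**
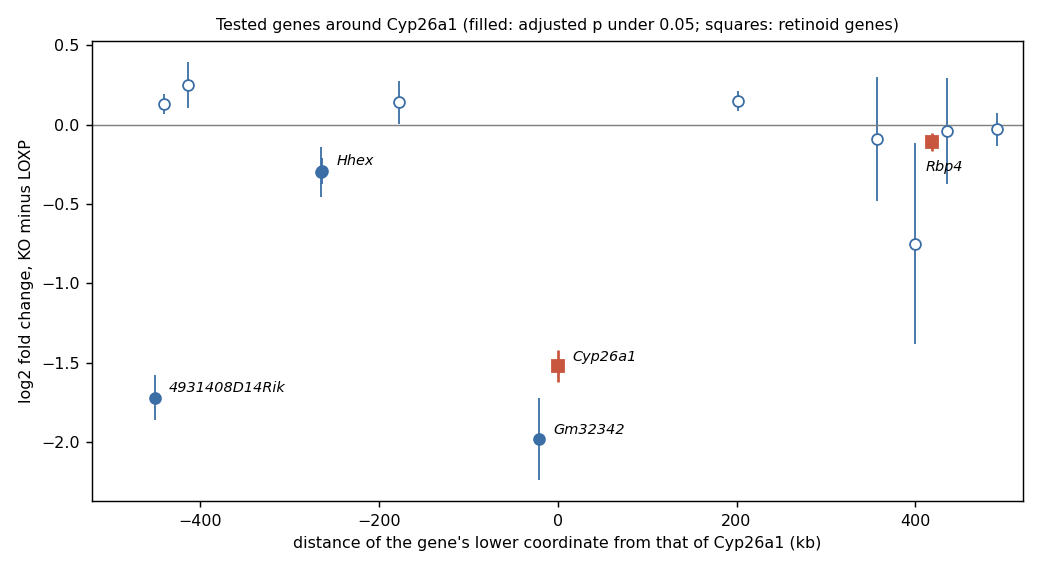
Log2 fold change (libraries labelled KO minus LOXP) with its standard error for the tested genes within 500 kb of Cyp26a1, against the distance of each gene's lower coordinate from that of Cyp26a1 in kb. Red squares are Cyp26a1 and Rbp4, and filled circles other genes with an adjusted p under 0.05. The 2 lowest points are Gm32342, close to Cyp26a1, and 4931408D14Rik, at the far left of the window.

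Some of the nearest neighbours of the other loci passed too. Aldh1b1, a mitochondrial aldehyde dehydrogenase gene near Stra6l, had 23.2, 24.3 and 22.9 CPM against 8.97 to 11.2 CPM and fell by 1.27 on the log2 scale (edgeR's quasi-likelihood test, adjusted p = 2.28e-04). Rdh9 and Rdh16f2 beside Rdh16, and Aldh1a7 beside Aldh1a1, are those already given. Tgoln1, a gene of the Golgi network, lies 7 bases beyond Retsat but is not its nearest tested gene by lower coordinate. It fell with a log2 fold change of -0.36 (adjusted p = 0.00316), while Retsat was higher in the libraries labelled KO. The nearest tested genes on either side of Rbp4, Ttr, Dhrs3, Retsat and Bco1, by lower coordinate, did not pass.

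The genes whose pattern over the 6 libraries was most like that of Cyp26a1, by the root mean square difference of log2 CPM deviations from each gene's mean over 10629 genes with a mean of at least 5 CPM, were Gstp3, Fam25a and Itih4, with differences of 0.0567, 0.0804 and 0.0834. Gstp3, a glutathione transferase gene, had 47.8, 54.7 and 55.3 CPM against 18.4, 18.2 and 17.9 CPM. Stra6l came next, in place 4, with a difference of 0.0984. Ttr was in place 726 and Bco1 in place 993, while Retsat, in place 10172, was near the far end. Dhrs3, with group means of 6.91 and 2.79 CPM, fell under the cutoff and was not ranked. The places of the retinoid genes follow from the values that led to their choice, so nothing is read from them.

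Promoters were searched, on both strands, for direct repeats of the half-sites AGGTCA and AGTTCA in every order, with 5, 2 or 1 bases between them (DR5, DR2 and DR1). Of the 9 genes, 8 had promoter windows in RefSeq's GRCm38.p6 annotation, 13 windows of 300 bases in all, and Ttr was not matched. Cyp26a1 held a DR5, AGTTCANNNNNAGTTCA on the minus strand, at chr19:37697776-37697792, ending 15 bases before the start site. It did not overlap a DR2 or DR1. A DR5 of these letters stood in 13 of 32851 promoter windows (0.0396%).

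These 13 windows belonged to 13 genes, of which 3 were tested. They were Cyp26a1, Gm32342 and Blvrb, a biliverdin reductase gene. The Gm32342 window faces the other way, shares 239 bases with that of Cyp26a1 and holds the same match, so the pair is 1 site counted for 2 genes. Blvrb had 79.3, 101 and 106 CPM against 139, 172 and 158 CPM and rose by 0.71 on the log2 scale (edgeR's quasi-likelihood test, adjusted p = 0.00371). Cyp26a1 was chosen with its value in view, so nothing on direction is read from these genes.

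Bco1 held a DR1, AGGTCANAGGTCA on the minus strand, at chr8:117095809-117095821, ending 43 bases before the start site. A DR1 of these letters stood in 27 windows (0.0822%), and a DR2 in 13, none of them in the windows of the 9 genes. Dhrs3 and Stra6l, which were lower in the libraries labelled KO as Cyp26a1 was, had no match in their windows. A match is a stretch of letters that does not say which receptor, if any, would bind it, and binding was not measured.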

How the data were processed

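Total RNA of 6 hepatocyte cultures, 3 labelled LOXP and 3 labelled KO, was sequenced. The submitters' processing notes name fastp, HISAT2, StringTie and edgeR and the build GRCm39. The authors deposited a table of raw read counts and FPKM values per gene and library, 12 value columns, all used. The counting tool, its strand setting and the annotation release are not given in the sources used here. Groups were taken from the sample titles.

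The deposited counts entered edgeR 4.0.16 (R 4.3.3). Its filterByExpr function, with the group as design and a minimum count of 10, retained 14151 genes. After TMM normalisation the groups were tested with the quasi-likelihood F test on all 6 libraries, two-sided, and p-values were adjusted by Benjamini and Hochberg's method over the retained genes. The standard error is the absolute log2 fold change divided by the square root of F. The same code was tested on simulated data. The deposited FPKM values were used to compare levels between genes and for the FPKM criterion. Sting1 was also compared by an exact two-sided permutation test of CPM (p = 1, where 0.1 is the smallest that 3 against 3 can give). Alternatives were DESeq2 1.42.0, upper-quartile factors, other filters on low counts, a replicate block, limma 3.58.1 on log2 FPKM with a pseudocount of 1 or of 0.1, leaving out each library, and other windows for neighbours.

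The 9 genes, the gene lists and the tests were chosen with earlier results of these data known. Genes named beside the 9 were, per list, at most 5 with the smallest adjusted p under 0.05 and the most abundant by FPKM, the nearest tested neighbour on each side where it passed, and the 3 genes most like Cyp26a1. The markers that this rule names are given by their lists. Rdh14, Cyp26b1, Cyp26c1, Aldh1a2, Aldh1a3, Lrat, Stra6, Gfap, Reln, Gm45053, Tgoln1, 4931408D14Rik, Hhex and Blvrb fall outside it and were named after their values were seen. The hepatocyte marker Tf was not matched by symbol, so 14 of 15 were used. Promoter windows run from 250 bases before to 50 after a RefSeq start in GRCm38.p6. Coordinates of genes are those of the table, in GRCm39, and were not converted. Some listed genes are counted in their lists and not reported here by name.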

Additional observations from a re-analysis of the deposited data

How the results depend on the processing

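Over 13 alternative settings, 113 of 117 values of the 9 genes moved by less than the SD between replicates and 116 kept their sign, the exception being among those of Rdh16. The other 4 moved on the FPKM scales with a pseudocount. On log2(FPKM + 1), Cyp26a1 was at -1.31, Stra6l at -1.11 and Dhrs3 at -0.53, and on log2(FPKM + 0.1) Dhrs3 was at -1.11, where the pseudocount shrinks changes of low genes. Without 1 library, 4 to 6 of the 9 genes were lower and 2 higher at an adjusted p under 0.05, with Bco1 past it in 3 of 6 leave-outs and Rbp4 in 1. On log2(FPKM + 1), 93 genes were lower and 38 higher by the 3 criteria, against 211 and 79, and without the FPKM criterion 373 and 150. Genes past an adjusted p of 0.05 numbered 1641 lower and 1633 higher, and without 1 library 1052 to 1515 and 922 to 1510, with the lowest counts without KO replicate 2. The 14 other retinoid genes that fell became 8 to 13 without 1 library, 8 of them without KO replicate 2 and 9 without KO replicate 3, and the 3 that rose became 5 with DESeq2. Marker genes that were higher numbered 3, and 1 to 3 without 1 library. Neighbours past the threshold numbered 29, against 9 within 100 kb and 55 within 1 Mb. The log2 fold change of Sting1 turned to 0.06 without LOXP replicate 3 and 0.11 without KO replicate 3, and ran from -0.26 to 0.11. That of Scarb1 turned to 0.02 on both FPKM scales, 0.02 without LOXP replicate 2, 0.01 without KO replicate 1 and 0.03 without KO replicate 3, and ran from -0.06 to 0.03 without 1 library. The causes were not tested. With replicate number as a block, 5 of the 9 genes were lower and 2 higher, as without it, and 10 other retinoid genes fell and 4 rose. Deviations from group means correlated by 0.132, 0.0729 and 0.0257 between libraries of the same number, and by -0.115 to 0.0406 between those of other numbers. Replicates 1 and 2 each correlated best with the same number, and LOXP replicate 3 with KO replicate 2. Whether the numbers pair the samples is not given in the sources used here, so the main fit left them unpaired. Depth limits most the genes with few counts, Sting1, Rdh9 and Dhrs3 among those named.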
